A study of Mus musculus with 8 samples.

Results

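This report describes 10 coinhibitory and costimulatory receptor genes in mouse regulatory T cells (Treg), the Foxp3-expressing CD4 T cells that restrain other immune cells. The genes are Ctla4, Pdcd1, Tigit, Lag3, Havcr2, Klrg1, Btla, Icos, Cd28 and Cd200. They were taken by name as checkpoint and costimulatory receptors, with earlier results of these data known. All 10 of them were among the 19826 genes of the deposited table.

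The Pdpk1 KO group held 4 libraries from mice with the genotype Foxp3 YFP-Cre/+ Pdpk1 FL/FL, in which both Pdpk1 copies are flanked by loxP sites. The WT group held 4 libraries from Foxp3 YFP-Cre/+ Pdpk1 +/+ mice. All mice were C57BL/6, untreated and of unstated age, and every animal, WT included, carried the Foxp3 allele that makes YFP and Cre on a single X chromosome. Cre is thus active only in cells that use that allele, so the sorted CD4+ YFP+ cells of spleen and peripheral lymph nodes shared the animal with Treg lacking Cre. The labels do not say whether a library came from 1 mouse or several, so a p-value covers the variation among these 8 libraries, which may be technical.

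Pdpk1 encodes PDK1, the kinase that activates AKT and related kinases downstream of PI3K. CD28 and ICOS are costimulatory receptors whose tails recruit PI3K after ligand binding, and so feed the pathway in which PDK1 acts. CTLA-4 competes with CD28 for CD80 and CD86 and is a main means by which Treg restrain antigen-presenting cells. PD-1, TIGIT, LAG-3, TIM-3, KLRG1 and BTLA pass inhibitory signals, and several of them are known as marks of activated, tissue-directed Treg rather than of resting ones.

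Recovered read totals lay between 17448095 and 26299577 per library. Foxp3 averaged 5355 ± 743 normalized counts in Pdpk1 KO and 5086 ± 740 in WT libraries (SD, n = 4 each), with overlapping groups. Pdpk1 averaged 1983 ± 365 and 2223 ± 320 in Pdpk1 KO and WT (exact two-sided permutation p = 0.286). This value sums every exon, and which exons lie between the loxP sites is not stated, so whole-gene Pdpk1 cannot test the genotype labels. Of 19 macrophage markers, 18 were tested, 9 were higher and 1, Axl, was lower. Their summed level ran from 2240 to 7251 normalized counts in Pdpk1 KO and from 1611 to 3185 in WT libraries. The highest mean levels of the list were in Pdpk1 KO replicates 2 and 3 and WT replicate 2. B cell markers summed to between 172 and 311 in Pdpk1 KO and between 443 and 574 in WT, with Ms4a1 and Blk at 0 in at least 4 libraries. NK cell markers summed to between 76.3 and 164 in Pdpk1 KO and between 100 and 165 in WT, and dendritic cell markers to between 20.5 and 64.0 and between 12.4 and 98.4. Cd8a and Cd8b1 together held 365 to 528 normalized counts in Pdpk1 KO and 268 to 512 in WT. Neutrophil and monocyte markers summed to between 97.7 and 157 in Pdpk1 KO and between 631 and 1237 in WT, most of it Ccr2, a chemokine receptor gene that activated Treg also use, with S100a9 at 0 in at least 4 libraries. Endothelial and stromal markers summed to between 5566 and 6471 in Pdpk1 KO and between 4368 and 5291 in WT, nearly all of it Pecam1, which T cells also make, and erythroid markers to between 6.52 and 130 and between 9.38 and 100. The CD4 T cell and Treg markers, all 7 of them tested, summed to between 74479 and 84164 in Pdpk1 KO and between 76704 and 97504 in WT. Of these 7, 1 was higher and 1 lower in Pdpk1 KO, with a median log2 change of -0.22. Over all tested genes 4.41% were higher and 5.06% lower. Exact permutation tests covered 12 library measures. The mean log2 level of CD8 T cell markers was 7.07 in Pdpk1 KO and 6.24 in WT, and that of endothelial and stromal markers 5.37 and 6.67. The latter was lower in Pdpk1 KO although the sum, nearly all Pecam1, was higher. Both means reached the smallest p that 70 assignments allow (0.0286), which adjusts to 0.171, so even complete separation of the groups did not pass here.

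Transcripts of 6 of the 10 receptor genes fell in Pdpk1 KO libraries. These were the coinhibitory receptor genes Pdcd1, Tigit, Lag3, Havcr2 and Klrg1 and the costimulatory receptor gene Icos. Ctla4, Btla, Cd28 and Cd200 did not pass the threshold in either direction, and no member was higher. Over all 13847 genes tested by limma with Benjamini-Hochberg adjustment at 0.05, 9.47% passed, 5.06% lower and 4.41% higher. On the recovered reads edgeR's quasi-likelihood test gave 5 members lower and 0 higher, without Havcr2, against 4.73% lower and 4.33% higher over all genes (9.06% in all). DESeq2 gave 6 lower and 0 higher, against 6.59% lower and 6.14% higher (12.7% in all). Of the 6 members lower by limma, 5 (all but Lag3) also had a log2 change of -1 or less, and 2.36% of all tested genes met both conditions. The median log2 change of the 10 genes was -0.93, against -0.007 over all tested genes. The members were chosen with earlier results of these data known, which limits each comparison with all genes. In 6 members every Pdpk1 KO value lay below every WT value, which held for 8.24% of all tested genes, and in 1, Cd200, every value lay above, as for 7.06% (15.3% of genes were apart in either direction). Havcr2, among the 6, could pass the filter only through high WT values, so it adds no support to these counts. When the mean macrophage marker level entered the fit as a covariate, 4 of the 10 were lower (Lag3 and Havcr2 lost their calls) and 1, Btla, was higher. A fit to the 5 libraries lowest in macrophage markers gave 5 lower, without Lag3. In these bulk samples, fewer cells that carry a receptor and less RNA per cell cannot be told apart.

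**Figure D1:**
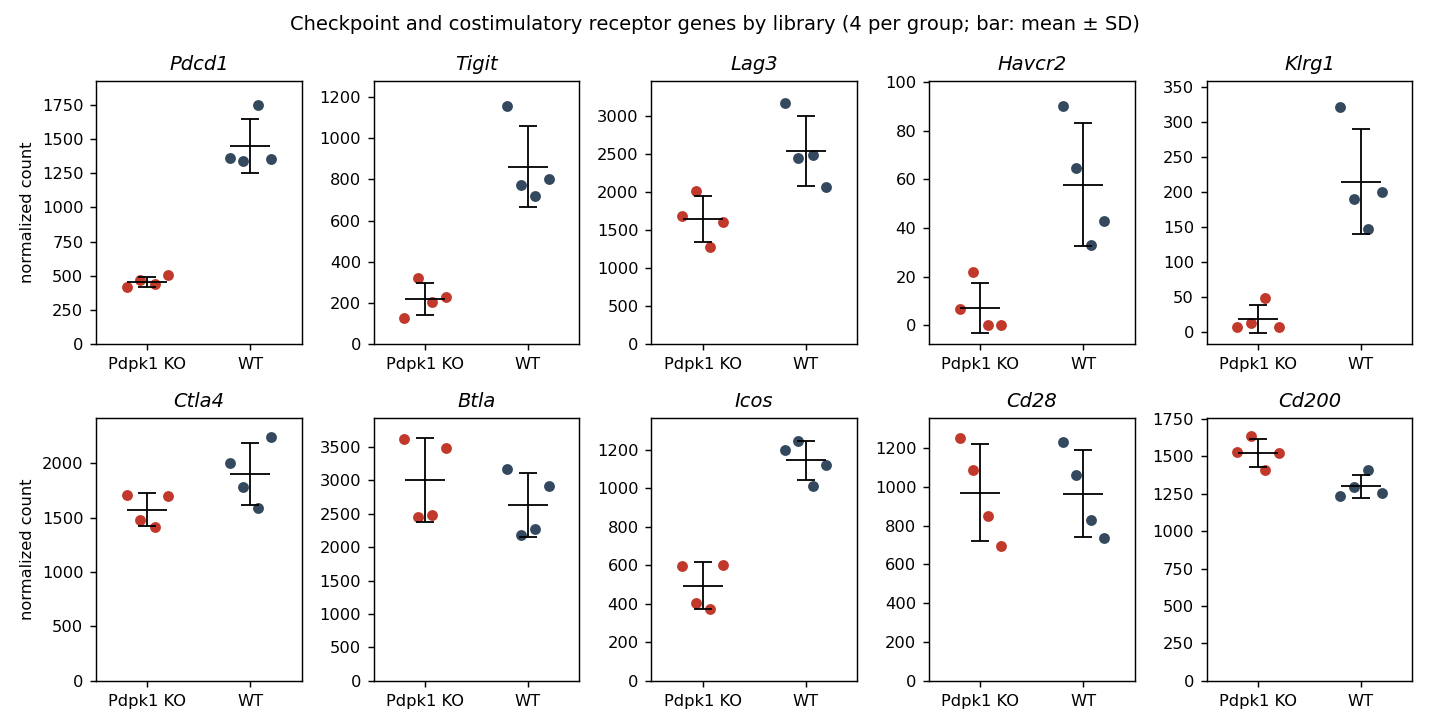
Normalized counts (vertical axes, each on its own linear scale) of the 10 receptor genes in the 4 Pdpk1 KO libraries (red) and the 4 WT libraries (blue), with the mean and SD as black bars. The groups are apart for Pdcd1, Tigit, Lag3, Havcr2, Klrg1, Icos and, with Pdpk1 KO above WT, Cd200, and overlap for Ctla4, Btla and Cd28.

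Among the coinhibitory genes the smallest p belonged to Pdcd1 (ENSMUSG00000026285, GRCm38 chromosome 1, 94038305 to 94052553, minus strand), which encodes PD-1, a receptor that recruits a phosphatase to CD28 and the T cell receptor. Its normalized counts were 416.2, 466.8, 437.9 and 502.6 in Pdpk1 KO replicates 1 to 4 and 1358.4, 1341.5, 1749.2 and 1353.4 in WT replicates 1 to 4. The Pdpk1 KO libraries lay close together and the nearest WT library held well over their highest value. The log2 change was -1.66 ± 0.12 (SE, 95% interval -1.92 to -1.40, adjusted p = 1.27e-06), a level 3.16-fold lower. By p it ranked 8 among the 13847 genes.

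Tigit (ENSMUSG00000071552, chromosome 16, 43648867 to 43664146, minus strand) encodes a receptor for CD155 that marks Treg of high suppressive capacity. It had 129.4, 320.0, 204.3 and 227.0 normalized counts in Pdpk1 KO and 1153.2, 773.4, 717.2 and 802.7 in WT replicates 1 to 4. Replicate 1 was the lowest library of the Pdpk1 KO group and the highest of the WT group, and the groups did not overlap. Tigit fell by 2.01 ± 0.23 on the log2 scale (SE, adjusted p = 5.28e-05), 4.03-fold.

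Lag3 (ENSMUSG00000030124, chromosome 6, 124904361 to 124911705, minus strand), whose product binds MHC class II, moved least among those that fell. Normalized counts were 1688.0, 2011.9, 1278.8 and 1606.1 in Pdpk1 KO and 3164.4, 2450.5, 2486.6 and 2062.1 in WT. Its groups only just separated, the highest Pdpk1 KO library (replicate 2) standing next to the lowest WT library (replicate 4). Lag3 changed by -0.63 ± 0.14 on the log2 scale (SE, adjusted p = 0.0111), or 1.54-fold lower. Neither the value with the macrophage covariate (-0.53, adjusted p = 0.2) nor that from the 5 libraries lowest in macrophage markers (-0.62, adjusted p = 0.0848) passed.

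The largest log2 changes were those of Havcr2 and Klrg1, at ranks 23 and 24 from the most negative of all tested genes. Klrg1 (ENSMUSG00000030114, chromosome 6, 122270596 to 122282882, minus strand) encodes a cadherin receptor of terminally differentiated cells. Its normalized counts were 6.52, 12.05, 48.28 and 6.83 in Pdpk1 KO and 322.4, 190.7, 147.3 and 199.4 in WT. Replicate 3 stood well above the other Pdpk1 KO libraries, yet below every WT library. Klrg1 changed by -3.89 ± 0.53 in log2 (SE, adjusted p = 0.000245), 14.9-fold lower on the log2(normalized count + 1) scale, and -4.50 without Pdpk1 KO replicate 3. In reads, Klrg1 rested on 69 in Pdpk1 KO and 856 in WT over the 4 libraries of each group. Klrg1 is also an NK cell transcript. Of 8 NK cell markers 6 were analysed, with overlapping sums in both groups (given above) and Ncr1 at 0 in at least 4 of the 8 libraries, and the part of NK cells in the Klrg1 values was not tested.

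Havcr2 (ENSMUSG00000020399, chromosome 11, 46454935 to 46481255, plus strand), the gene of TIM-3, was the scarcest member. It had 6.52 and 21.92 normalized counts in Pdpk1 KO replicates 1 and 2 and 0 in replicates 3 and 4, where 0 allows up to 3.37 and 2.56. In WT replicates 1 to 4 it had 90.19, 64.62, 33.14 and 43.03. The groups were apart, but all Pdpk1 KO libraries together held 27 reads, against 227 in WT. Only Pdpk1 KO replicate 2 reached a normalized count of 10, so Havcr2 could pass the filter only through high WT values. The filter thus favoured this separation, which adds no support. The log2 change of Havcr2, -3.92 ± 0.94 (SE, 95% interval -5.91 to -1.92, adjusted p = 0.0147), passed. The size of this change was the least certain of the 10: -2.65 with a pseudocount of 5, -3.02 in edgeR's quasi-likelihood test (adjusted p = 0.0608) and -3.03 in DESeq2 (adjusted p = 0.00509). Leaving out single libraries moved it to -4.81 without Pdpk1 KO replicate 2 and to -3.30 without either replicate 3 or replicate 4. TIM-3 is also made by macrophages and dendritic cells. The Pdpk1 KO library with the most Havcr2 was replicate 2, also the highest in macrophage markers, and with those markers as a covariate the change was -4.42 (adjusted p = 0.0906). The part of those cells in the values was not tested.

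The coinhibitory genes that did not pass were Ctla4 and Btla. Ctla4 (ENSMUSG00000026011, chromosome 1, 60887000 to 60915832, plus strand) had 1702.9, 1473.8, 1409.0 and 1700.0 normalized counts in Pdpk1 KO and 2004.4, 1778.2, 1584.4 and 2237.7 in WT. WT replicate 3 fell within the Pdpk1 KO range, so the groups overlapped. The log2 change was -0.27 ± 0.12 (SE, 95% interval -0.52 to -0.02, adjusted p = 0.183), so the interval holds no fall as large as that of Pdcd1, Tigit or Icos. With a term for replicate number in the limma fit, the same change passed (adjusted p = 0.0247), though the labels do not link equal numbers.

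Btla (ENSMUSG00000052013, chromosome 16, 45224315 to 45257670, plus strand) encodes an inhibitory receptor that binds HVEM. It had 3622.7, 2443.6, 2480.0 and 3480.1 normalized counts in Pdpk1 KO and 3164.4, 2186.8, 2276.7 and 2910.5 in WT. Both groups were split into a higher and a lower pair of libraries, and they overlapped widely. A log2 change of 0.18 (95% interval -0.14 to 0.51, adjusted p = 0.519) did not pass. The macrophage covariate moved it to 0.60, which passed (adjusted p = 0.0394), and the 5 libraries lowest in macrophage markers gave 0.36 (adjusted p = 0.299). Btla is abundant in B cells too, whose markers were lower in Pdpk1 KO libraries (sums above). Their part in the Btla values was not tested.

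**Figure D2:**
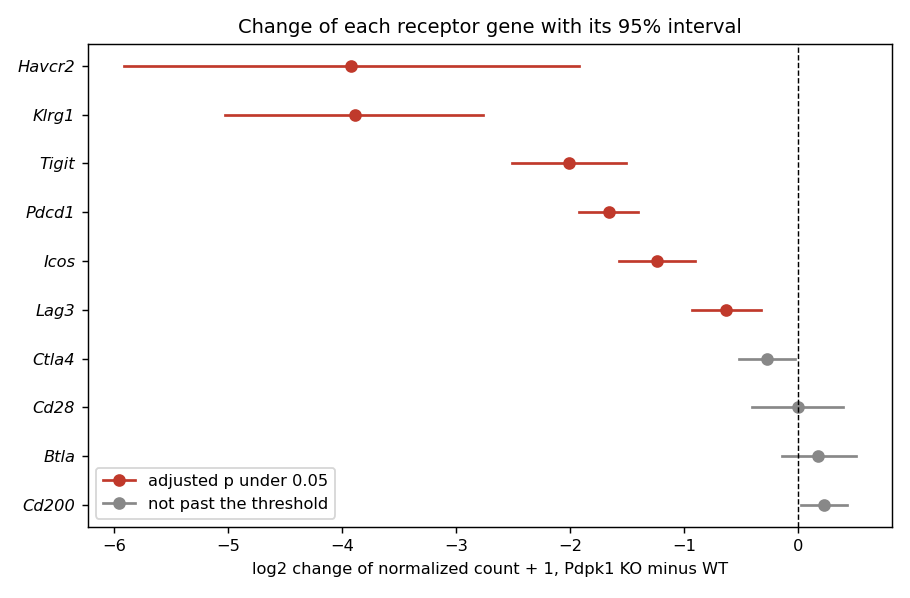
Log2 change of each receptor gene (Pdpk1 KO minus WT, horizontal axis, on the log2(normalized count + 1) scale) with its 95% interval from limma, in red where the adjusted p was under 0.05 and in grey otherwise. The 6 red intervals lie wholly below 0, with the widest for Havcr2 (-5.91 to -1.92), and the 4 grey points lie between -0.27 and 0.23.

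Of the costimulatory receptors, Icos fell and Cd28 did not change detectably. Icos (ENSMUSG00000026009, chromosome 1, 60977927 to 61000320, plus strand), whose product sustains effector Treg through ICOS ligand, had 596.8, 406.5, 375.0 and 599.1 normalized counts in Pdpk1 KO. In WT it had 1198.3, 1242.4, 1012.7 and 1120.6, and no Pdpk1 KO library came near the lowest of these. The log2 change was -1.24 ± 0.16 (SE, adjusted p = 0.000129), 2.36-fold lower.

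Cd28 (ENSMUSG00000026012, chromosome 1, 60716800 to 60773359, plus strand) had 1250.4, 1087.0, 848.8 and 693.8 normalized counts in Pdpk1 KO and 1229.9, 1061.1, 827.6 and 736.0 in WT. Libraries within a group differed from each other far more than the group means of 970 ± 247 and 964 ± 224 did (SD, n = 4 each, Pdpk1 KO first). The log2 change was 0.00 with a 95% interval of -0.40 to 0.40 (adjusted p = 0.995).

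Cd28, Ctla4 and Icos are neighbours on the plus strand of chromosome 1. Among tested protein-coding genes, nothing lay in the 113640 bp between Cd28 and Ctla4 or in the 62094 bp between Ctla4 and Icos. Along this stretch the log2 changes were 0.00, -0.27 and -1.24, so only the last of them passed the threshold. Raph1, before Cd28, was at -0.27 (limma adjusted p = 0.491) and Pard3b, after Icos, at 1.13 (0.482), and neither passed. Btla and Cd200 are likewise next to each other on chromosome 16, 124464 bp apart, and neither passed.

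Cd200 (ENSMUSG00000022661, chromosome 16, 45382135 to 45409053, minus strand) encodes a membrane glycoprotein that acts as the ligand of the inhibitory receptor CD200R on myeloid cells. Normalized counts were 1530.7, 1636.0, 1405.6 and 1518.2 in Pdpk1 KO and 1236.7, 1294.5, 1404.8 and 1255.9 in WT. The groups did not overlap, though Pdpk1 KO replicate 3 and WT replicate 3 were nearly equal. The log2 change of 0.23 ± 0.10 (SE, 95% interval 0.03 to 0.43) did not pass the threshold after adjustment over all genes (unadjusted p = 0.0296, adjusted p = 0.159).

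**Figure D3:**
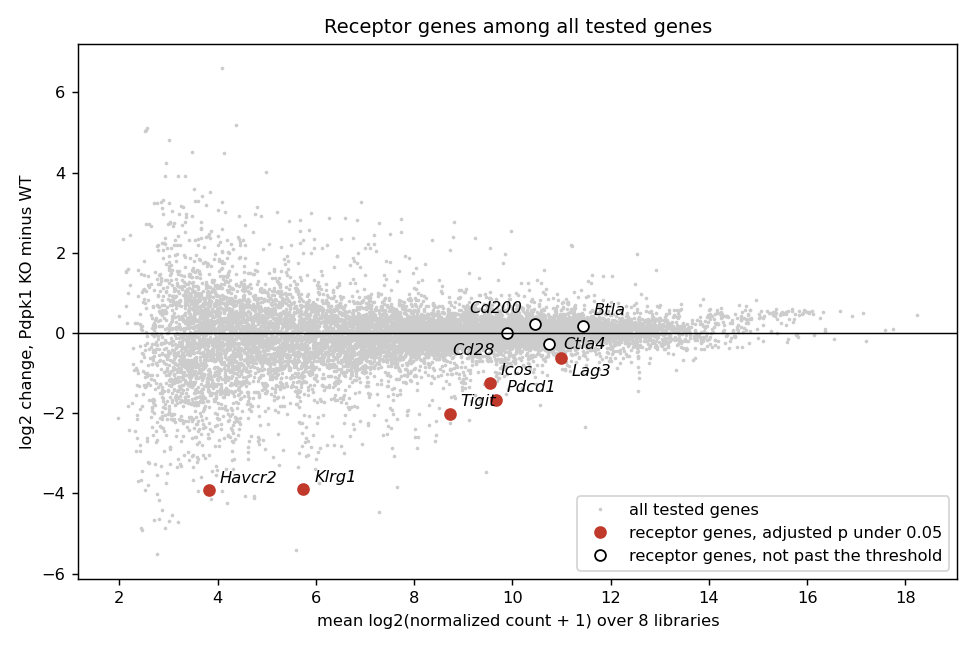
Mean log2(normalized count + 1) over the 8 libraries (horizontal axis) against the log2 change, Pdpk1 KO minus WT (vertical axis), for the 13847 tested genes (grey) and the 10 receptor genes (red, adjusted p under 0.05, and open circles, not past it). Havcr2 and Klrg1 lie at the lower edge among scarcer genes, and Pdcd1, Tigit and Icos below most genes of their mean level.

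Levels of different genes were compared as normalized counts per kb of annotated exon. In Pdpk1 KO libraries Btla was the highest at 885 ± 186 per kb, followed by Lag3 at 781 ± 143, Ctla4 at 674 ± 65.4 and Cd200 at 458 ± 28.4 (SD, n = 4 each). Btla, Lag3 and Ctla4 overlapped one another in range. Tigit and Pdcd1 followed at 240 ± 85.4 and 236 ± 19.4 per kb, then Cd28 at 158 ± 40.4 and Icos at 144 ± 35.1, and last Klrg1 at 13.0 ± 14.2 and Havcr2 at 2.61 ± 3.80. Tigit and Pdcd1 overlapped in range, and so did Cd28 and Icos. In WT libraries the order was Lag3 (1205 ± 217 per kb), Tigit (938 ± 215), Ctla4 (816 ± 121), Btla (776 ± 141), Pdcd1 (752 ± 103), Cd200 (391 ± 22.6), Icos (333 ± 29.4), Cd28 (157 ± 36.6), Klrg1 (152 ± 53.2) and Havcr2 (21.2 ± 9.30). Each gene from Lag3 to Pdcd1 overlapped the next in that order, as did Cd28 and Klrg1. Of the summed per-kb level of the 10 genes, Btla took a median of 25.4% in Pdpk1 KO and 13.7% in WT libraries, Ctla4 19.3% and 14.0%, and Cd200 12.7% and 7.29%. Tigit took 6.86% in Pdpk1 KO and 16.3% in WT, and Pdcd1 6.72% and 13.2%. These shares sum to a fixed total, so a fall of some members raises the share of the others.

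**Figure D4:**
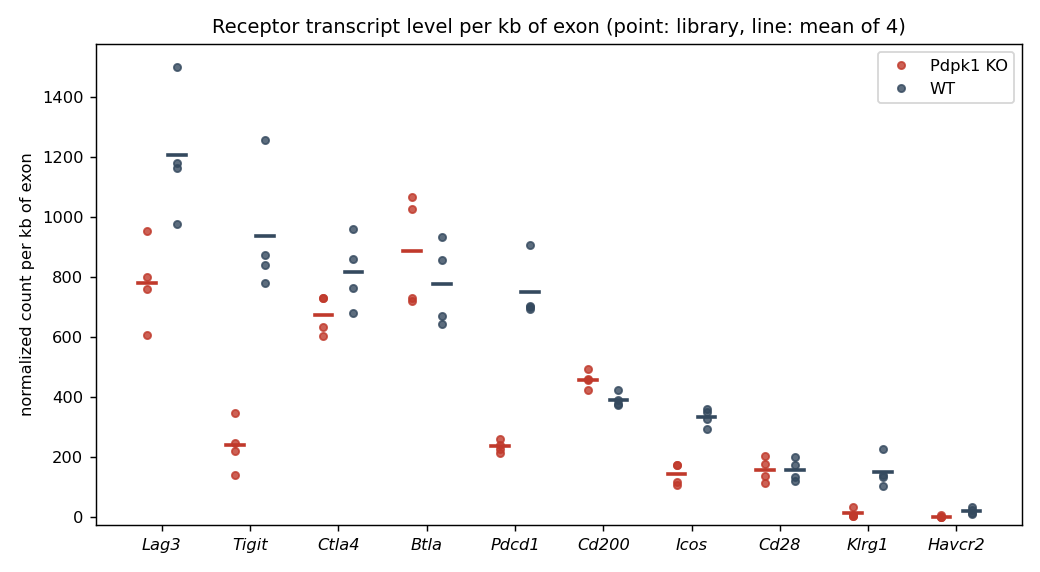
Normalized count per kb of exon (vertical axis) of the 10 receptor genes, ordered by the WT mean, with each of the 4 Pdpk1 KO libraries (red) and 4 WT libraries (blue) as a point and the group mean as a line. Tigit and Pdcd1 stand near Ctla4 and Btla in WT but at 240 and 236 per kb on average in Pdpk1 KO libraries, below Cd200.

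Whether members moved apart was tested as log2 ratios within each library, in 4 pairs adjusted together. TIGIT and the costimulatory receptor CD226 share ligands. Cd226 (chromosome 18, 89176967 to 89272229) itself fell to 766 ± 90.4 normalized counts in Pdpk1 KO, against 1281 ± 92.3 in WT (SD, n = 4 each, log2 change -0.75, limma adjusted p = 0.000582). The log2 ratio of Tigit to Cd226 was -2.77, -1.10, -1.80 and -1.77 in Pdpk1 KO and -0.28, -0.72, -0.72 and -0.65 in WT libraries, lower in all 4 Pdpk1 KO libraries than in any WT library. The difference was -1.26 (exact two-sided permutation p = 0.0286, adjusted p = 0.0381), so Tigit fell more than its costimulatory counterpart.

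The ratio of Icos to Cd28 was -1.07, -1.42, -1.18 and -0.21 in Pdpk1 KO and -0.04, 0.23, 0.29 and 0.61 in WT, a difference of -1.24. That of Pdcd1 to Cd28 averaged -1.06 ± 0.47 in Pdpk1 KO and 0.61 ± 0.44 in WT (SD, n = 4 each), a difference of -1.66. Neither ratio overlapped between groups (exact permutation p = 0.0286 and adjusted p = 0.0381 for each, the unadjusted value being the smallest that 70 assignments allow). Without any 1 WT library the 3 differences that passed kept their sign but not their call (adjusted p = 0.0762), while without any 1 Pdpk1 KO library they kept both (adjusted p = 0.0381). Groups that are apart with every library stay apart when 1 is left out, so their separation in these fits adds no support. With so few assignments the permutation p takes only coarse steps, so the lost call does not mean that the groups came closer. Ctla4 to Cd28, the receptors that share CD80 and CD86, was 0.45, 0.44, 0.73 and 1.29 in Pdpk1 KO and 0.70, 0.74, 0.94 and 1.60 in WT. These overlapped, and the difference of -0.27 was smaller than the SDs of 0.40 in Pdpk1 KO and 0.42 in WT (exact permutation p = 0.457). That test and the SDs take no account of replicate numbers, so the SDs include any spread shared by libraries of the same number. At each number the ratio was lower in Pdpk1 KO than in WT, but the labels do not link equal numbers. Cd28 enters 3 of the 4 pairs, which are therefore not independent. Its own log2 change was 0.00, so these 3 differences equal the changes of Icos, Pdcd1 and Ctla4 and are not separate results.

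**Figure D5:**
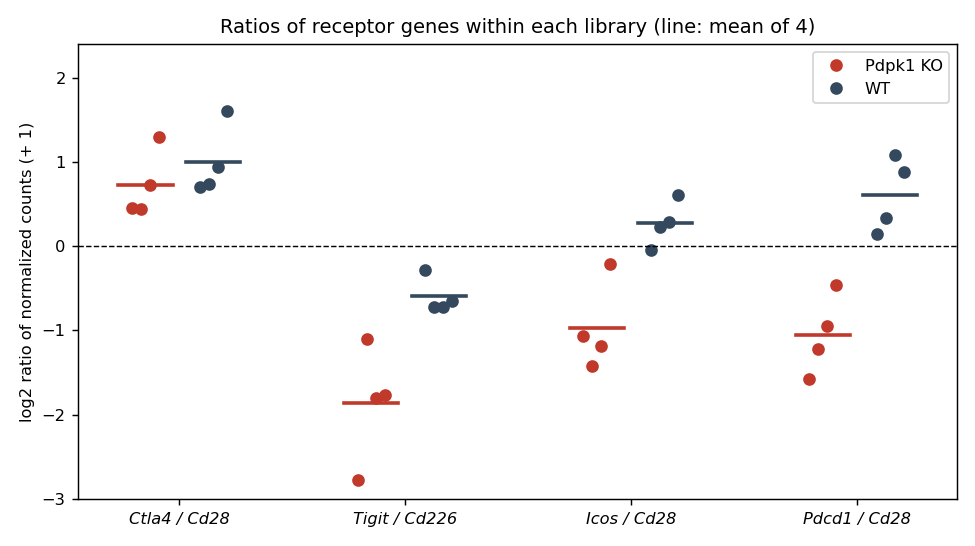
Log2 ratio of normalized counts (+ 1) of 2 receptor genes within each library (vertical axis), for 4 pairs, with Pdpk1 KO libraries in red, WT libraries in blue and lines at the group means. The groups are apart for Tigit / Cd226, Icos / Cd28 and Pdcd1 / Cd28 (differences of -1.26, -1.24 and -1.66) and overlap for Ctla4 / Cd28 (-0.27).

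Promoter sequences of the members were read from RefSeq on GRCm38.p6, where Ctla4, Pdcd1, Tigit, Havcr2, Btla and Cd200 had an entry and Lag3, Klrg1, Icos and Cd28 were not matched. Letters of 5 motifs were searched on both strands in windows from 250 bases before to 50 after the start of the RefSeq entry. This start can differ from the gene bounds given above, and for Ctla4 the window lies well inside them. The AP-1 motif TGANTCA, found in 7.81% of 32851 windows, occurred in 1 of the 6, that of Havcr2. The NFAT motif GGAAAA, found in 23.4%, occurred in 2 of the 6, Tigit and Ctla4. The FoxO motif GTAAACA, the Maf motif TGCTGAC and the T-box motif GGTGTGA, in 3.65%, 4.67% and 3.98% of windows, occurred in none. The 250 bases before the start are shown for the windows that held any of these letters, in capitals, 2 of genes that fell and 1 of a gene that did not pass, all read in the direction of the gene.
Tigit, chr16:43664185-43664434, minus strand: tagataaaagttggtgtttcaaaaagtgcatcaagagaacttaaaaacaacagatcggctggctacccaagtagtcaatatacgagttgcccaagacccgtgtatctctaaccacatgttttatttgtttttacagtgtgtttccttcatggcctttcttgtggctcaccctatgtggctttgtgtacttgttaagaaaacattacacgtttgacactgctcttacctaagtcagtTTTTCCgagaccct
Havcr2, chr11:46454681-46454930, plus strand: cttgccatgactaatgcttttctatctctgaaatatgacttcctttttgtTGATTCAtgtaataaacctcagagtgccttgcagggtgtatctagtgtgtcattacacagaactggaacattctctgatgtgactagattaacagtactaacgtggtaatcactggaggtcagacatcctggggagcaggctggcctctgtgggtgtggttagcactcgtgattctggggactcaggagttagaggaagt
Ctla4, chr1:60908775-60909024, plus strand: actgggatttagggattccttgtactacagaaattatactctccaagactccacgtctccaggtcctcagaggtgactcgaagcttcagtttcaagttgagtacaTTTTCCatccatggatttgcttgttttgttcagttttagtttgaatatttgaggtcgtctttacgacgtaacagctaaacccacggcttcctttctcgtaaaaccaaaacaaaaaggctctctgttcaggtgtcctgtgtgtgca
The NFAT letters lie on the opposite strand at -14 in Tigit and -145 in Ctla4, counted to the first base of the match in the direction of the gene, and the AP-1 letters at -200 in Havcr2. A match is a description of the sequence and not a binding site, and the NFAT letters were present both in a gene that fell and in one that did not pass.

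Most ligands and binding partners of the members did not pass the threshold. Of 15 tested, 2 were lower and none higher, with a median log2 change of -0.25. Over all tested genes 5.06% were lower and 4.41% higher, with a median of -0.007. Cd86, a ligand of CTLA-4 and CD28 that Treg can also carry, had 378.0, 244.4, 295.3 and 343.9 normalized counts in Pdpk1 KO and 562.5, 576.4, 600.2 and 583.1 in WT. All Pdpk1 KO libraries were below all WT libraries (log2 change -0.90 ± 0.15 SE, adjusted p = 0.00145). Cd200r1, the receptor of CD200, fell to 168 ± 47.6 in Pdpk1 KO, against 286 ± 48.0 in WT (adjusted p = 0.0414). In Pdpk1 KO libraries B cell marker sums were lower, and most macrophage markers that passed were higher (values above). The part of such cells in the Cd86 and Cd200r1 values was not tested. Tnfrsf14, which encodes the BTLA ligand HVEM and is in the TNF receptor list too, stood at 481 ± 111 in Pdpk1 KO and 584 ± 197 in WT (adjusted p = 0.518).

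Other immunoglobulin-family receptors of T cells numbered 18, of which 6 fell, 1 rose and 11 did not pass, with a median log2 change of -0.28. The shares over all tested genes were 5.06% lower and 4.41% higher, with a median of -0.007. Besides Cd226, Pvrig, an inhibitory receptor gene of the TIGIT ligand network, fell by 3.95 ± 0.79 (SE) on the log2 scale, with 0.93, 9.86, 3.37 and 0 normalized counts in Pdpk1 KO and 80.04, 39.61, 36.82 and 41.28 in WT (adjusted p = 0.00485). All values were low, and every Pdpk1 KO library held fewer than any WT library. No Pdpk1 KO value reached 10, so Pvrig could pass the filter only with all 4 WT values at 10 or more. That separation was therefore set by the filter and adds no support. Cd6 fell by 0.38 on the log2 scale, to 10052 ± 936 in Pdpk1 KO, against 13090 ± 987 in WT (adjusted p = 0.0222). The one that rose was Slamf6, a receptor gene of less differentiated T cells, at 7214 ± 606 in Pdpk1 KO and 4505 ± 779 in WT (SD, n = 4 each, log2 change 0.69, adjusted p = 0.00129).

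Costimulatory receptors of the TNF receptor superfamily gave 3 of 7 lower and none higher, with a median of -0.42. Among all tested genes 5.06% were lower and 4.41% higher (median -0.007). Tnfrsf9 (4-1BB), Tnfrsf4 (OX40) and Tnfrsf1b (TNFR2) fell by 1.26, 0.91 and 0.87 on the log2 scale (adjusted p = 2.41e-05, 0.000627 and 3.85e-05). Tnfrsf4, for example, averaged 2591 ± 557 in Pdpk1 KO and 4826 ± 716 in WT libraries.

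Genes of proteins that act on the receptor tails mostly stayed within the spread, 24 in all, of which 2 fell, 2 rose and 20 did not pass (median -0.11). Beside this, 5.06% of all tested genes fell and 4.41% rose (median -0.007). Pik3cd, the PI3K catalytic subunit of leukocytes, and Prkcq, a kinase downstream of CD28, rose by log2 changes of 0.39 each (adjusted p = 0.0159 and 0.0105). Ptpn22, a phosphatase that restrains T cell receptor signals, and Inpp5d, the SHIP1 phosphatase, fell by 0.39 and 0.31 (adjusted p = 0.0135 and 0.0307). Ptpn11 and Ptpn6, the phosphatases SHP-2 and SHP-1 recruited by PD-1 and BTLA, were at -0.23 and -0.28 and did not pass (adjusted p = 0.223 and 0.114, both named after their values were seen).

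Of 9 tested genes of CTLA-4 trafficking, 1 rose and 1 fell, with a median log2 change of -0.04. Over all tested genes 4.41% rose and 5.06% fell, with a median of -0.007. Trat1, which encodes the adaptor TRIM that carries CTLA-4 toward the cell surface, had 6102 ± 644 normalized counts in Pdpk1 KO and 2264 ± 307 in WT (SD, n = 4 each, log2 change 1.43 ± 0.11 SE, adjusted p = 1.51e-06). Lax1, an adaptor described in the same complex, had 1289 ± 124 in Pdpk1 KO and 2082 ± 216 in WT (log2 change -0.69, adjusted p = 0.000759). Lrba, which protects CTLA-4 from lysosomal degradation, was at -0.36 and not past the threshold (adjusted p = 0.0604, also named after its values were seen).

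Among 20 transcription factors known to act on checkpoint receptor genes, 8 fell, 2 rose and 10 did not pass, with a median log2 change of -0.41. The shares over all tested genes were 5.06% lower and 4.41% higher, with a median of -0.007. Maf, a driver of coinhibitory receptor expression, averaged 1298 ± 340 in Pdpk1 KO and 6527 ± 1215 in WT (log2 change -2.35, adjusted p = 8.38e-07). Tox2 stood at 81.6 ± 18.0 in Pdpk1 KO and 427 ± 128 in WT (log2 change -2.36, adjusted p = 1.92e-05), and Nfatc1 and Nr4a1, both responsive to the T cell receptor, fell by 0.69 and 0.70 (adjusted p = 0.000353 and 0.00211). The 2 that rose were Bach2 and Tcf7, factors of resting and memory-like T cells, each by a log2 change of 0.53 (adjusted p = 0.00277 and 0.0205), both named after their values were seen. Foxp3 did not pass (log2 change 0.08, adjusted p = 0.768).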

How the data were processed

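Polyadenylated RNA of sorted CD4+ YFP+ cells was sequenced in 8 libraries. Values are the deposited signal, gene read counts scaled by the authors with DESeq2 size factors per the file's own name, called normalized counts. Per the submitters' processing notes, Trimmomatic 0.39, STAR 2.7.6a, SAMtools 1.11, featureCounts of Subread 2.0.1, DESeq2 1.21 and GRCm38 were used. Which annotation release and strand setting they used is not given in the sources used here; no exon of another GENCODE M21 gene overlaps an exon of the 10 receptor genes. Dividing each library by its smallest positive value gave whole reads for 100% of values (tolerance 0.001). Of 19826 genes, 19775 matched a GENCODE M21 symbol.

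Genes with a normalized count of 10 or more in at least 4 libraries (13847, with 5979 left out) were compared as log2(normalized count + 1) with limma 3.58.1 in R 4.3.3, two-sided with an eBayes trend, and Benjamini-Hochberg adjustment covered all 13847 at a threshold of 0.05. All 10 receptor genes passed this filter, Havcr2 only through its WT values. Changes are Pdpk1 KO minus WT on that scale, where the pseudocount shrinks changes of scarce genes. Unless edgeR, DESeq2 or a permutation test is named, an adjusted p comes from limma. Alternatives were other pseudocounts, filters and scalings, edgeR 4.0.16 and DESeq2 1.42.0 on the recovered reads, a replicate term, a macrophage covariate and fits without libraries. A count of 0 allows up to 3 reads, for counting error only.

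All 10 receptor genes were named with values. From every list other than markers, up to 4 genes that passed were named in order of adjusted p, and Cd226, Tnfrsf14, Foxp3 and Pdpk1 as partners or checks. The members and lists were chosen with earlier results of these data known.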

Additional observations from a re-analysis of the deposited data

Results flagged for a closer look

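Of 34 groups of 4 values checked, 2 held a library far from the other 3 by Dixon's criterion, close to the 1 in 20 that chance gives. Pdcd1 in WT replicate 3 had 1749.2 normalized counts, above the other WT libraries and away from the Pdpk1 KO range. Klrg1 in Pdpk1 KO replicate 3 had 48.28, above the other Pdpk1 KO libraries and below every WT library. That library was also the second highest in mean macrophage marker level, at 7.43 on the log2 scale.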

How the results depend on the processing

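Of 19 alternatives, 14 gave 6 receptor genes lower, 1 gave 7, 3 gave 5 and 1 gave 4, and 18 gave 0 higher. With the macrophage marker mean as a covariate 1 receptor gene, Btla, was higher, and over all genes 487 were called, 279 lower and 208 higher, against 1311, 700 and 611. Without the 3 libraries highest in those markers the counts were 472, 305 and 167. The cause was not tested, but that fit has 5 libraries. Leaving out 1 library at a time gave 884 to 1312 genes called, 495 to 724 lower and 389 to 588 higher, the fewest higher without WT replicate 4 (389) and Pdpk1 KO replicate 3 (395). Throughout these 8 fits the count of receptor genes lower was 6. Same-numbered libraries deviated together with correlations of 0.217, 0.092, 0.048 and 0.113, all of them positive. Between unlike numbers the correlations ran from -0.156 to 0.109, and Pdpk1 KO replicate 2 correlated best with WT replicate 3. The labels do not link equal numbers, and the main tests take no account of them. Whether the numbers mark pairs was not tested. With the replicate block 2535 genes were called, 1292 lower and 1243 higher, and Ctla4 passed (-0.27, adjusted p = 0.0247) while the other receptor genes kept their calls. Cd28 changed sign at -0.01 under quantile normalization and ranged from -0.13 to 0.15 when 1 library was left out, never past the threshold. Havcr2 was not past it in edgeR, and the filter of 50 left it out. The ratio differences kept their sign: when 1 library was left out they were -1.52 to -0.96 for Tigit to Cd226, -1.49 to -1.09 for Icos to Cd28, -1.86 to -1.49 for Pdcd1 to Cd28 and -0.46 to -0.07 for Ctla4 to Cd28. For each of the first 3 the permutation test gave an adjusted p of 0.0381 without any 1 Pdpk1 KO replicate and 0.0762 without any 1 WT replicate. Groups that are apart with every library stay apart when 1 is left out, so that adds no support. With so few assignments this p takes only coarse steps. Without the 3 libraries the first 3 were -1.72, -0.93 and -1.72 (permutation adjusted p = 0.133 each). With the 5 libraries left, no exact permutation p can fall under 0.05, so this test could not pass whatever the values. Depth limits Havcr2 and Klrg1, with 27 and 69 reads in the Pdpk1 KO group.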

Other observations

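Cd28 varied more between libraries than between groups. Its values in libraries with the same number were close, 1250.4 in Pdpk1 KO and 1229.9 in WT for replicate 1, 1087.0 and 1061.1 for replicate 2, 848.8 and 827.6 for replicate 3, and 693.8 and 736.0 for replicate 4. Btla was higher in Pdpk1 KO than in WT at each number, for example 3622.7 and 3164.4 normalized counts in replicate 1. The labels do not say that a number links libraries, and this was seen after the values were examined.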
